A study of Homo sapiens with 24 samples.

Results

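Clustered replication-dependent histone genes encode the core histones H2A, H2B, H3 and H4 and the linker histone H1, the proteins that package newly made DNA. The 49 genes described here are the rows of the deposited expression table whose symbol starts with HIST1H, HIST2H, HIST3H or HIST4H and whose normalised read count was at least 10 in at least 3 of the 24 libraries. The table has 25082 rows, 67 of them with such a symbol, and 18 of these 67 stayed under the threshold. Of the 49 genes, 4 encode H1, 11 encode H2A, 17 encode H2B, 8 encode H3 and 9 encode H4. The 37 HIST1 genes lie on human chromosome 6, the 9 HIST2 and 2 HIST3 genes on chromosome 1 and HIST4H4 on chromosome 12 in the GRCh38 annotation. Just inside the threshold were HIST1H2BB and HIST2H4B, with 10.2 and 11.3 normalised reads in the third highest library of each. Just outside were HIST2H2AC and HIST1H2BI, at 9.21 and 9.06. No gene passed through 1 group alone, and 32 had a library of at least 10 in all 8 groups. HIST2H2BC is annotated as a transcribed pseudogene.

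Replication-dependent histone genes are transcribed in S phase, when DNA is copied. Most of their mRNA ends in a conserved stem-loop and carries no poly(A) tail: the stem-loop-binding protein SLBP and the U7 snRNP, which contains LSM10 and LSM11, make that end, with ZNF473 as a partner. Several of these genes can also yield a longer mRNA that runs past the stem-loop to a poly(A) site, a form known from differentiated and non-dividing cells. The libraries were made from RNA captured by its poly(A) tail, so the counts are of histone RNA that came through this capture, and they do not tell the poly(A) form from any stem-loop form carried along.

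The RNA came from SET2, a human megakaryoblastic line grown from a patient with a myeloproliferative neoplasm, whose growth depends on the kinase JAK2. The 4 persistent lines had been kept growing in a type I JAK inhibitor, a drug that binds the active form of the kinase: BMS911543, CYT387 (momelotinib), INC424 (ruxolitinib) or SAR302503 (fedratinib). The other groups were naive cells given INC424 for 48 h, naive cells given INC424 for 4 h, naive cells given DMSO for 4 h and naive cells with no addition. Each of the 8 groups has 3 libraries. All cells grew in RPMI1640 with 20% FCS, drug concentrations and the number of clones behind a line are not given in the sources used here, and the persistent lines still had their inhibitor. The 48 h samples have no vehicle of their own length and were set against DMSO at 4 h. Nothing in the labels says that the 3 libraries of a group came from separate cultures. The p-values therefore rest on the spread between these libraries, which may be technical.

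Whole reads recovered from the table numbered 21770721 to 36160750 per library, and histone reads were a small part of them. On average the 49 genes took 0.0251% of reads in cells given INC424 for 48 h, 0.0138% after INC424 for 4 h, 0.0154% after DMSO and 0.0119% in naive cells. In the persistent lines the share was 0.01002% (BMS911543), 0.0106% (CYT387), 0.00748% (INC424) and 0.00925% (SAR302503). The CYT387 libraries had 0.00787%, 0.0151% and 0.00873%, and without replicate 2, described next, both are below the SAR302503 and BMS911543 averages. The library of CYT387-persistent replicate 2 stands apart: its summed signal of 10 squamous epithelial markers was 148709, against 76.6 to 32036 in the other 23 libraries, and that of 9 stromal markers was 62599, against 1688 to 4968. In this library 13 of the 49 histone genes were listed at 0, while HIST1H1C, HIST1H2BK and HIST4H4 had their highest values there. Calls lost without it are given with and without it, and calls gained without it are named for part of the members. Some RNA without a poly(A) tail was counted too: 20 small RNAs known to lack one, such as RN7SK, took 0.0131% of reads on average after 48 h of INC424, 0.0117% after DMSO and 0.0110% in naive cells, shares of the same order as the histone share. Megakaryocyte markers were detected in all libraries (summed signal 68404 to 164205 over 9 genes), although PF4 was at 0 in all 3 libraries of the SAR302503, INC424 4 h, DMSO and naive groups. Since the cells were sequenced in bulk, fewer cells making an RNA and less RNA per cell cannot be told apart.

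The element that sets the usual 3′ end was found in the annotated transcripts of 27 of the 49 genes in GENCODE 29 (GRCh38). Many of the other genes, such as HIST1H1C and HIST1H4A, have an annotated 3′ UTR of 0 bases. The search had no 3′ UTR to scan there, so a missing match does not show that the element is absent. The element is 16 bases long, with 6-base arms around a 4-base loop shown in capitals. The 5 forms are printed because they mark the usual end of the mRNA.
form in 15 genes, among them HIST1H2AC and HIST2H2BE: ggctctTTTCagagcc
form in 4 genes, HIST1H4B, HIST1H4E, HIST1H4H and HIST4H4: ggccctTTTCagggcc
form in 3 genes, HIST1H2BC, HIST1H2BD and HIST1H2BF: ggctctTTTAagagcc
form in 3 genes, HIST1H4I, HIST2H4A and HIST2H4B: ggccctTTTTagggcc
form in 2 genes, HIST1H2AG and HIST2H2BC: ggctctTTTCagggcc
In 21 of the 27 genes an annotated transcript continued for more than 100 bases after the stem-loop. In HIST1H2AC it continued for 1128 bases, in HIST2H2BE for 1729 and in HIST1H2AG for 1761. In HIST1H2BD the stem-loop was found in 1 of 2 annotated transcripts, with 39 bases after it. In HIST1H2BC it was also found in 1 of 2. A longer form of these genes therefore need not hold it. By another rule, a coding transcript with a 3′ UTR of over 150 bases or a RefSeq gene span of over 1000 bases, 25 of the 49 genes were counted as having a longer 3′ end. HIST1H2BK and HIST1H3D met this rule by gene span alone, with an annotated 3′ UTR of 0 bases. The other 24 include the pseudogene HIST2H2BC, whose noncoding transcript continues for 5804 bases after the stem-loop, and which passed in none of the 9 comparisons.

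Reads were concentrated in a few genes. HIST1H2AC averaged 916 normalised reads over the 24 libraries and took 25.5% of the histone signal, HIST1H2BK averaged 618 and HIST1H1C 307. With HIST2H2BE at 277 and HIST1H2BD at 202, these 5 genes took 64.5% of the signal. The counts are not divided by length, so this is an order of reads and not of RNA molecules. At the other end, 23 genes averaged under 20 reads. Class by class, H2B and H2A genes together took most of the signal in every group, and H3 genes took the least. In cells given INC424 for 48 h, H2A took 45.2% of the histone signal, H2B 37.4%, H1 8.95%, H4 6.40% and H3 2.05%. After DMSO, H2A took 20.1%, H2B 49.3%, H1 16.5%, H4 11.3% and H3 2.63%. HIST1H2AC alone made up 39.8% after 48 h of INC424 and 15.3% after DMSO, so the larger H2A share is mostly that gene.

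**Figure D1:**
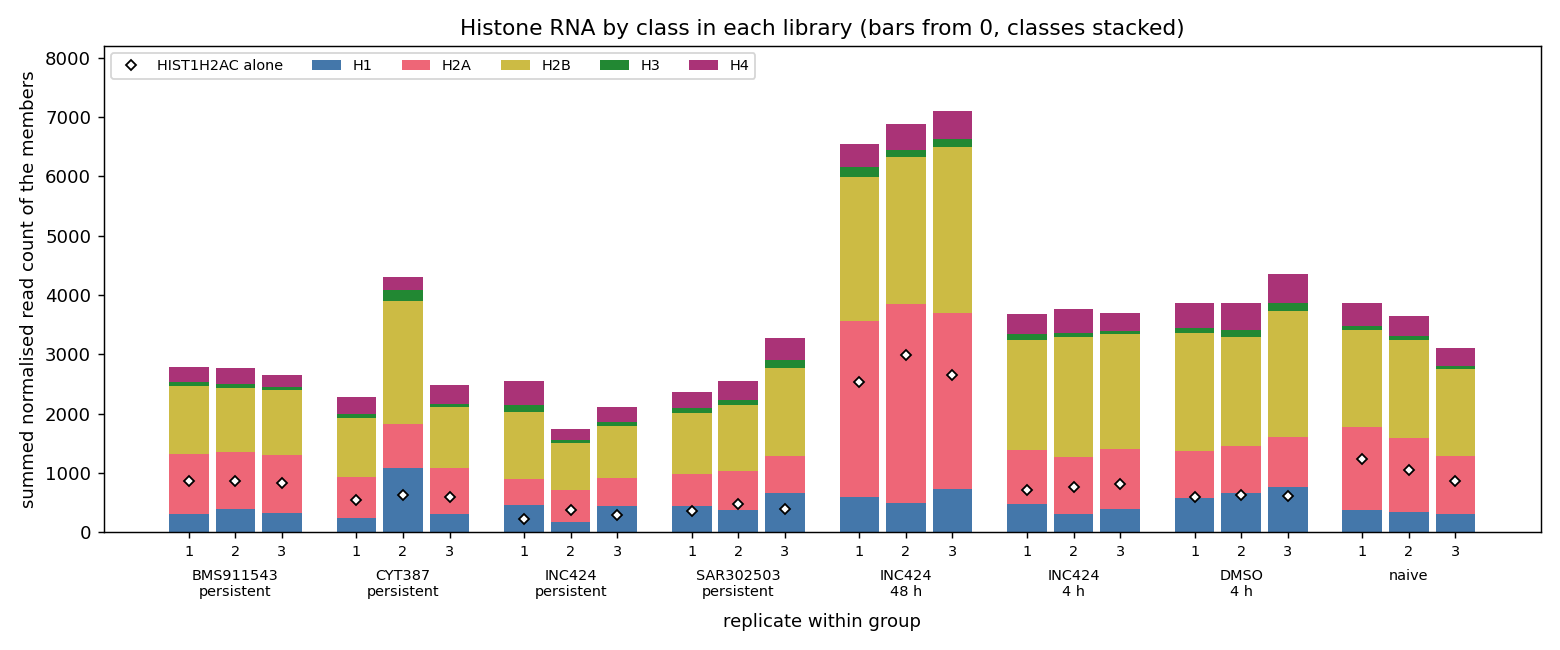
Stacked bars give the summed normalised read count of the 49 histone genes in each of the 24 libraries (y axis, from 0), coloured by class, with groups along the x axis and HIST1H2AC alone as a diamond. The 3 libraries given INC424 for 48 h sum to 6555 to 7110, above all the others, and the next highest single library is DMSO replicate 3 at 4359.

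Across the 8 groups, 18 of the 49 genes differed by a moderated F test in limma at an adjusted p under 0.05, against 66.6% of all 20154 genes tested, and 25 did without CYT387-persistent replicate 2. Adjusted p-values here and below are from limma on log2(normalised read count + 1), with Benjamini-Hochberg adjustment over all genes tested. The smallest belonged to HIST1H2AC (adjusted p = 1.78e-11), followed by HIST2H2BE (4.04e-06), HIST3H2A (6.87e-06), HIST1H2BD (9.90e-06) and HIST1H2BK (0.000148). Most histone genes have few reads, and 25 of the 49 passed in none of the 9 comparisons below.

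In naive cells given INC424 for 48 h, 8 histone genes were higher and 1 was lower than after DMSO. Of the 11 H2A genes 4 were higher and 1 was lower, and of the 17 H2B genes 2 were higher. None of the 4 H1 genes passed. Of all genes tested, 17.6% were higher and 16.4% lower. Groups without overlap are common here: 30.7% of all genes tested had every 48 h library above every DMSO library, and 29.2% below. HIST1H2AC, a canonical H2A gene of the large cluster on chromosome 6, had 2532, 2991 and 2658 normalised reads after 48 h of INC424, against 601, 625 and 621 after DMSO. All 3 libraries at 48 h are high, and the groups do not overlap. The fitted change was 4.42-fold (95% interval 3.51 to 5.55, adjusted p = 1.85e-09). HIST1H2BD, an H2B gene known to yield polyadenylated mRNA, had 511, 480.4 and 612 reads after 48 h of INC424, against 197, 145 and 149 after DMSO. Its lowest 48 h library is above its highest DMSO library. The log2 difference was 1.71 ± 0.30 (SE, adjusted p = 0.000109). HIST2H2BE, an H2B gene on chromosome 1 with a long annotated 3′ end, had 575, 699 and 632 reads after 48 h of INC424, against 221, 249.7 and 268 after DMSO. All 3 treated libraries are again above all 3 vehicle libraries, with a log2 difference of 1.36 ± 0.22 (SE, adjusted p = 4.85e-05).

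A pair of less abundant H2A genes moved as far on the log2 scale. HIST1H2AG had 178, 148 and 149 reads after 48 h of INC424, against 44.8, 22.2 and 34 after DMSO, and the groups do not overlap. Its log2 difference was 2.25 ± 0.37 (SE, adjusted p = 6.67e-05). HIST3H2A, from the small HIST3 cluster, had 109, 86.4 and 67.1 reads after 48 h of INC424, against 21.2, 10.7 and 25.3 after DMSO, again without overlap. Its log2 difference was 2.19 ± 0.38 (SE, adjusted p = 0.000104). These 5 calls, HIST1H2AC, HIST1H2BD, HIST2H2BE, HIST1H2AG and HIST3H2A, held without any 1 of the 24 libraries. The other calls each depended on single libraries. HIST1H3E had 35.6, 28.1 and 21 reads after 48 h of INC424, against 0.814, 9.04 and 4.74 after DMSO (adjusted p = 0.0117, or 0.0887 without DMSO replicate 1). HIST1H4I had 71.3, 98 and 82.1 reads after INC424, against 30.1, 20.5 and 22.9 after DMSO, and missed the threshold without any one of the 6 compared libraries (adjusted p = 0.0645 to 0.116). HIST1H2AK had 18.4 ± 5.64 reads after INC424 and 2.98 ± 1.28 after DMSO (SD, n = 3 each), with adjusted p = 0.0501 to 0.0778 without INC424 48 h replicate 1 or 2 or DMSO replicate 3. HIST2H2AA4, the gene that was lower, had 44.1, 14.6 and 13 reads after INC424, against 45.6, 55 and 53 after DMSO, and lost its call without INC424 48 h replicate 2 or 3 or DMSO replicate 2 or 3 (adjusted p = 0.0616 to 0.127). HIST2H2AA4 has a near-identical copy, HIST2H2AA3, and how reads shared by such copies were counted is not given in the sources used here. The same holds for HIST2H4A and HIST2H4B.

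Several of the most read genes did not pass in the same libraries. HIST1H1C, the most read H1 gene, had 439, 373 and 604 reads after 48 h of INC424, against 429, 489.5 and 523 after DMSO (log2 difference -0.05 ± 0.48 SE, adjusted p = 0.952). HIST1H2BK, the second most read histone gene, had 726, 761 and 912 reads after INC424, against 1069.6, 929.8 and 1124 after DMSO (log2 difference -0.38 ± 0.35 SE, adjusted p = 0.439). HIST1H1E, another H1 gene, averaged 78.3 ± 7.12 after INC424 and 117 ± 31.3 after DMSO (SD, n = 3 each, adjusted p = 0.293). Over all 49 genes the median log2 difference was 0.12, against 0.00 for all genes tested. The 8 genes called higher are 16.3% of the members, against 17.6% of all genes tested, and the 1 called lower is 2.04%, against 16.4%. The share called higher is near that of the whole table, so the number of genes that rose is not a result about the family. Without CYT387-persistent replicate 2, which is in neither group but enters the shared estimate of spread, 11 members were called. Those 11 include HIST1H3H, higher (log2 difference 1.35, adjusted p = 0.0410), and HIST1H4A, lower (-1.84, adjusted p = 0.0208).

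**Figure D2:**
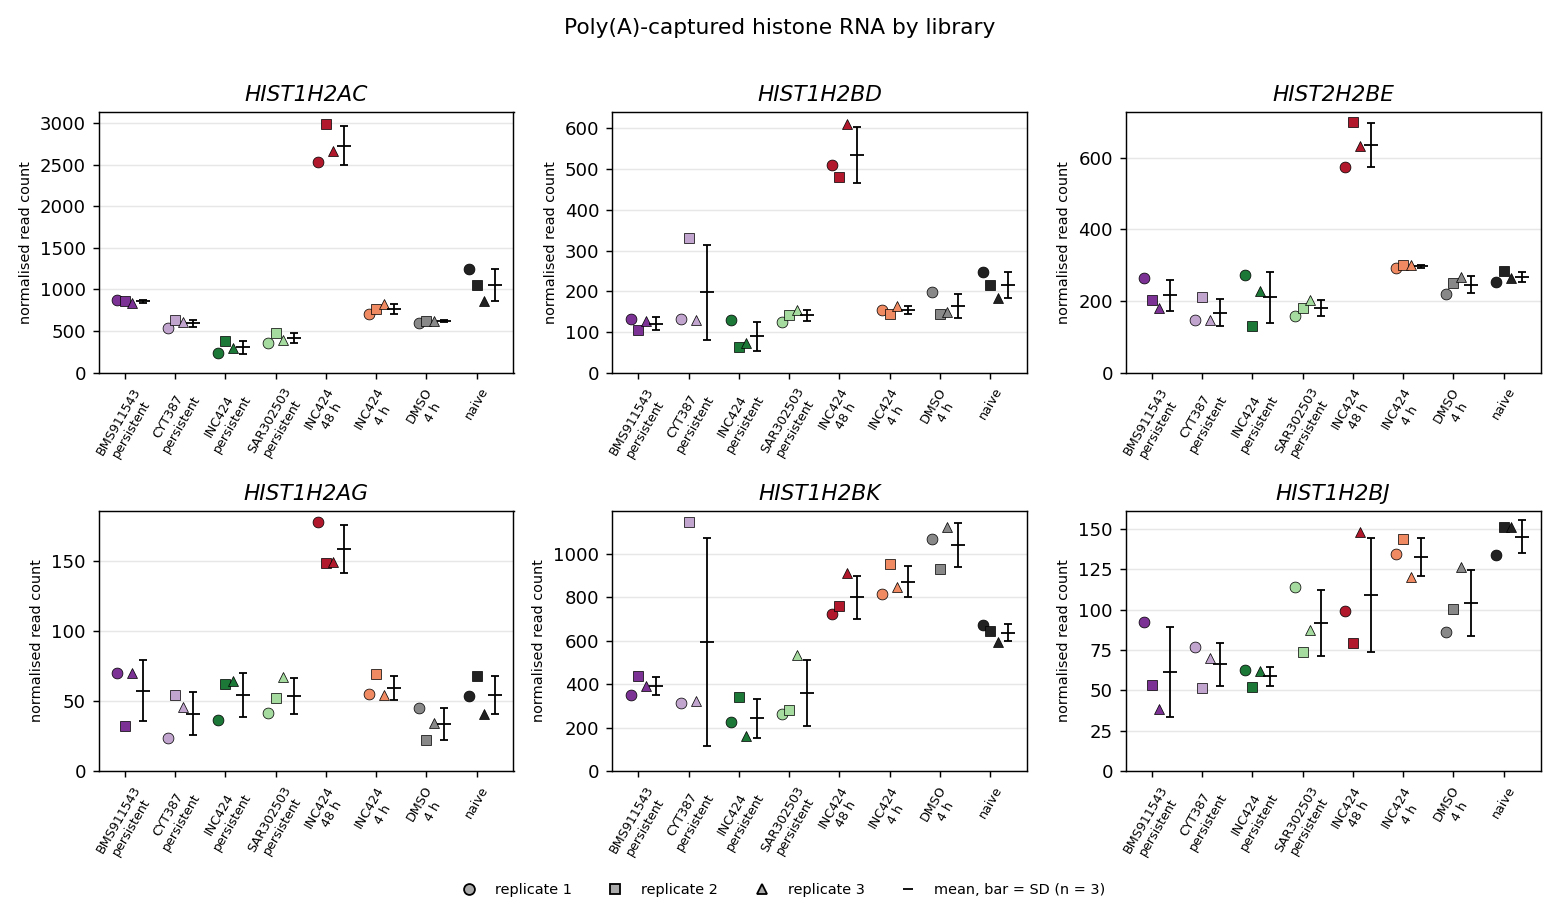
Points give the normalised read count (y axis, from 0) of 6 histone genes in each library, by group along the x axis and by replicate symbol, with the mean and SD (n = 3) as a line and bar. HIST1H2AC, HIST1H2BD, HIST2H2BE and HIST1H2AG stand highest after 48 h of INC424, while HIST1H2BK is high in DMSO-treated cells and in CYT387-persistent replicate 2, and HIST1H2BJ is highest in naive cells.

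At 4 h no rise was detected. Against DMSO, 4 h of INC424 gave 0 members called by limma in either direction, against 4.88% of all genes called higher and 3.49% lower. At an unadjusted p under 0.05 there were 4 members, edgeR's quasi-likelihood test on the recovered reads called 0 and DESeq2 called 1. HIST1H2AC had 709, 769 and 824 reads after 4 h of INC424, against 601, 625 and 621 after DMSO. The groups do not overlap, which holds in this direction for 20.7% of all genes tested. The log2 difference of 0.32 ± 0.16 (SE, adjusted p = 0.281) did not pass. HIST1H1C had 307, 202 and 249.5 reads after INC424, against 429, 489.5 and 523 after DMSO (log2 difference -0.94 ± 0.48 SE, adjusted p = 0.286), and passed only in fits that left out or down-weighted other groups' libraries (adjusted p = 0.0310 without CYT387-persistent replicate 2). The median log2 difference of the members was -0.12, against -0.01 for all genes tested.

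Between 48 h and 4 h of INC424, 7 members were higher (14.3%, against 7.03% of all genes tested) and 0 were lower (against 7.69%). HIST1H2AC had 2532, 2991 and 2658 reads at 48 h, against 709, 769 and 824 at 4 h, a log2 difference of 1.83 ± 0.16 (SE, adjusted p = 1.17e-07). HIST1H2BD and HIST2H2BE differed by 1.78 and 1.09 on the log2 scale (adjusted p = 0.000248 and 0.0016). Those 3 calls held without any 1 library. The calls of HIST1H2AG, HIST1H3E, HIST3H2A and HIST2H4A did not. HIST1H2AG missed the threshold without INC424 48 h replicate 1 or INC424 4 h replicate 3 (adjusted p = 0.0548 to 0.0580). HIST1H3E (adjusted p = 0.0584 to 0.0766) and HIST3H2A (0.0811 to 0.131) each lost the call without any one of 4 libraries: INC424 48 h replicate 1 or 2 and INC424 4 h replicate 3 for both, with INC424 4 h replicate 1 for HIST1H3E and replicate 2 for HIST3H2A. HIST2H4A lost it without any one of 14 libraries (0.0518 to 0.166). Only 3 or 4 members were called without INC424 48 h replicate 1 (3), INC424 48 h replicate 2 (4) or INC424 4 h replicate 3 (3), and 12 were called without CYT387-persistent replicate 2. Those 12 include HIST1H1C (log2 difference 0.89, adjusted p = 0.0300) and HIST1H3H (1.67, adjusted p = 0.0219). The comparisons of 48 h with DMSO and with 4 h share the 48 h libraries, and those of 48 h and 4 h with DMSO share the DMSO libraries. Between 48 h and 4 h, 29 of 34 S-phase and replication genes were lower and 0 higher. Of 10 erythroid markers, 8 were higher and 0 lower, with a summed signal of 194941 to 216780 at 48 h, against 65787 to 78407 at 4 h, and none was at 0. Megakaryocyte markers were higher for 3 of 9 and lower for 0, with a summed signal of 125295 to 131408 at 48 h, against 85486 to 97850 at 4 h, where PF4 was at 0. The part of either in the histone result was not tested.

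**Figure D3:**
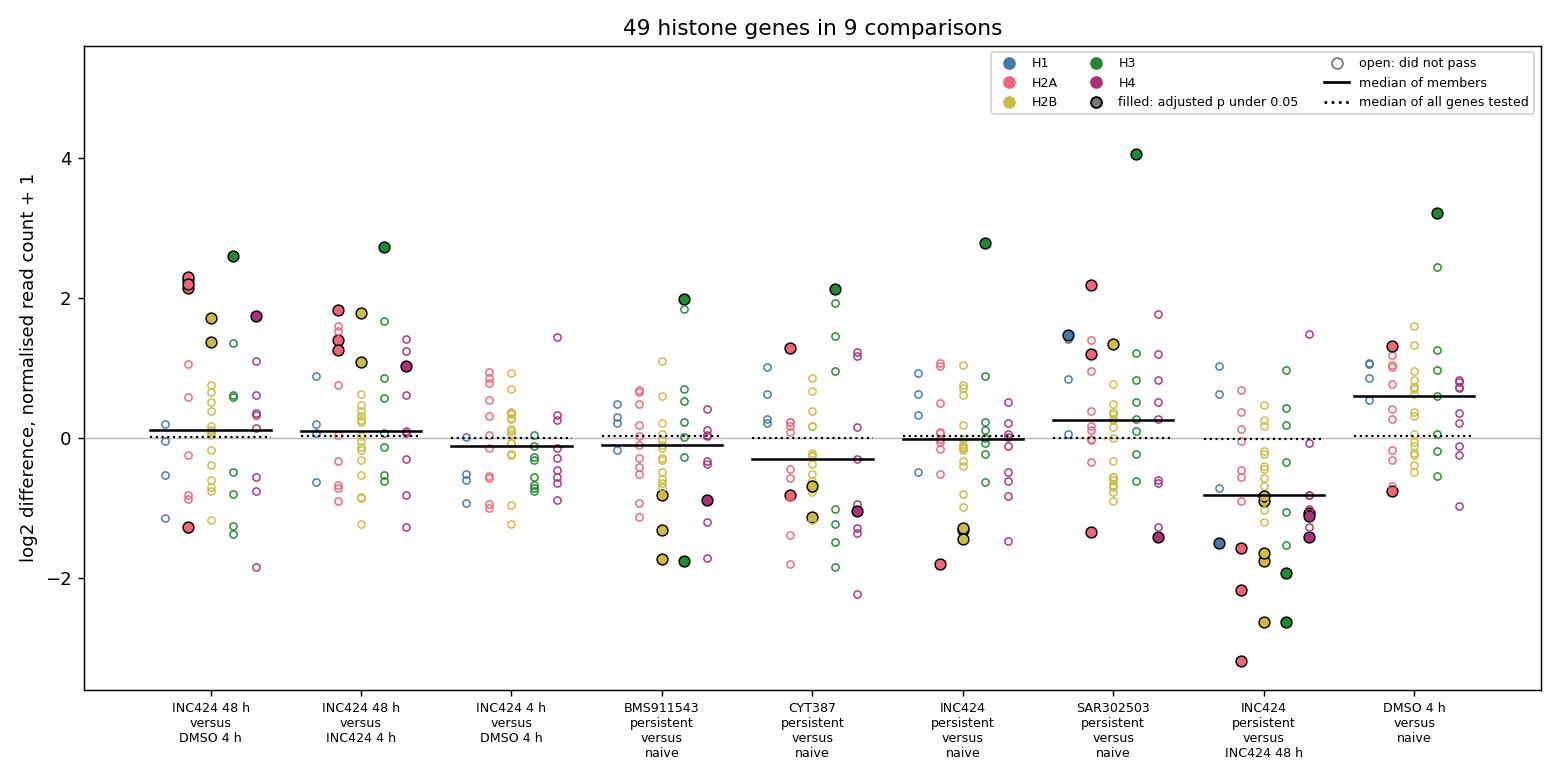
Each point is the log2 difference of 1 histone gene (y axis, on normalised read count + 1) in 1 of 9 comparisons (x axis), coloured by class and filled where the adjusted p was under 0.05, with solid lines at the median of the 49 genes and dotted lines at the median of all genes tested. After 48 h of INC424 the filled points are mostly above 0, and the INC424-persistent line against 48 h of INC424 has filled points below 0 only. The fitted values of HIST1H3C in the comparisons with naive cells rest on 2 naive reads.

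In the comparison of 48 h of INC424 with DMSO, genes of DNA replication were lower. Of 34 genes of S phase and replication, 32 were lower after 48 h of INC424 than after DMSO and 0 were higher, with a median log2 difference of -0.99. GINS1, part of the replicative helicase, averaged 255 ± 12.8 reads after INC424 and 975 ± 78.7 after DMSO (SD, n = 3 each, log2 difference -1.93, adjusted p = 1.78e-08). MCM10, a DNA replication factor, averaged 799.6 ± 45.9 after INC424 and 2697 ± 90.8 after DMSO (log2 difference -1.75, adjusted p = 3.44e-10). Of 21 genes that form the histone 3′ end, 15 were lower and 0 higher, with a median of -0.61. SNRPG and SNRPE, shared snRNP proteins, had log2 differences of -1.20 and -1.12 (adjusted p = 1.24e-05 and 7.76e-05). SLBP, named for its part in the pathway, averaged 1015 ± 83.2 reads after INC424 and 1917 ± 49.6 after DMSO (log2 difference -0.92, adjusted p = 1.35e-06). LSM11 averaged 134 ± 3.95 after INC424 and 302 ± 44.8 after DMSO (log2 difference -1.15, adjusted p = 2.32e-05), and ZNF473 averaged 1159 ± 53.3 after INC424 and 2545 ± 51.3 after DMSO (log2 difference -1.13, adjusted p = 0.000457). LSM10, also named for its part in the pathway, averaged 296 ± 26.6 after INC424 and 324 ± 21.8 after DMSO and did not pass (adjusted p = 0.723). NPAT, the histone gene coactivator driven by cyclin E and CDK2, averaged 1678 ± 119.5 after INC424 and 1365 ± 178.9 after DMSO (adjusted p = 0.207). Blood lineage markers moved in the same samples. Of 10 erythroid markers, 9 were higher and 0 lower, with a summed signal of 194941 to 216780 after INC424, against 47484 to 57810 after DMSO, and none was at 0. Of 9 megakaryocyte markers, 5 were higher and 1 lower, with a summed signal of 125295 to 131408 after INC424, against 68404 to 86832 after DMSO. Their part in the histone result was not tested.

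Most members that rose have a longer annotated 3′ end. Of the 25 genes with a longer annotated end, 7 were higher and 0 lower after 48 h of INC424, and 20 had a log2 difference above 0, with a median of 0.39. Of the other 24 genes, 1 was higher and 1 lower, and 8 had a difference above 0, with a median of -0.52. Many of these 24, such as HIST1H1C, HIST1H4A and HIST1H3C, have an annotated 3′ UTR of 0 bases. So do HIST1H2BK and HIST1H3D, which are among the 25 only through RefSeq gene spans of 8566 and 2510 bases. The true end of such genes is not shown by the annotation, so the split also sorts genes by how complete their annotation is. The longer-ended genes also carry most of the reads: their summed signal averaged 5909 ± 251 after INC424 and 2956 ± 136 after DMSO, and that of the other 24 genes 939 ± 131 after INC424 and 1075 ± 160.3 after DMSO (SD, n = 3 each). Of the 8 genes listed from background knowledge as having a polyadenylated form, HIST1H2AC, HIST1H2BD and HIST2H2BE rose and 5 did not pass. The list was drawn up with earlier results of these data known, so it is not independent of them. All of these 8 but HIST1H1C are counted among the longer-ended genes. No test of the difference between the end types was made. Of the small RNAs without a tail, 15 were tested, 1 was higher and 0 were lower after 48 h of INC424, with a median log2 difference of 0.39 and a summed signal of 3100 to 4404, against 2872 to 3314 after DMSO. The part of such RNA in the histone counts was not tested.

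**Figure D4:**
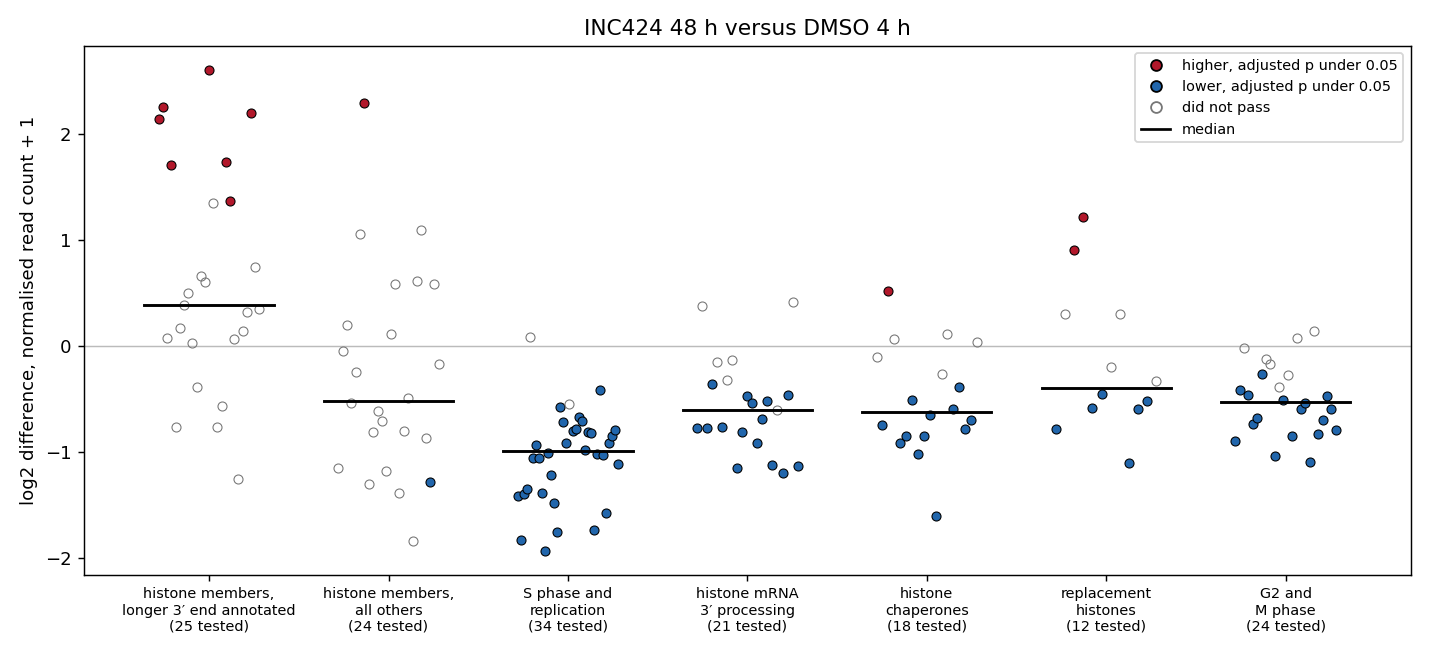
Each point is 1 gene's log2 difference between cells given INC424 for 48 h and cells given DMSO for 4 h (y axis, on normalised read count + 1), for the histone genes with a longer annotated 3′ end, the other 24 histone genes and 5 gene lists (x axis), with the median as a line. Among the 34 S-phase and replication genes 32 are coloured as lower, while 7 of the 25 histone genes with a longer 3′ end are coloured as higher and 0 as lower. Many of the other 24 histone genes have no annotated 3′ UTR, and neither do HIST1H2BK and HIST1H3D, placed among the 25 by gene span.

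Many H2A and H2B genes sit head to head and start within a short distance of each other, so neighbours share a promoter region. Among the members, 8 head-to-head pairs have starts less than 1000 bases apart in RefSeq (GRCh38.p14). HIST1H3D with HIST1H2BF and HIST1H3F with HIST1H2BH pair an H3 gene with an H2B gene, and the others pair H2A with H2B. The stretches in front of 4 genes are printed because they lie in front of the 4 members with most reads among those that rose and held without any 1 library, or beside a partner that did not pass. Each runs 5′ to 3′ towards the named gene's start and stops before the neighbour's start, except for HIST1H2BD, which has no such neighbour. Capitals mark TATAAA (the TATA box), CCAAT (the CCAAT box) and ATGCAAAT (the octamer), on either strand. In HIST1H2AG a pair of TATAAA matches on opposite strands overlap.
HIST1H2AC, plus strand, chr6:26123927-26124171, neighbour HIST1H2BC: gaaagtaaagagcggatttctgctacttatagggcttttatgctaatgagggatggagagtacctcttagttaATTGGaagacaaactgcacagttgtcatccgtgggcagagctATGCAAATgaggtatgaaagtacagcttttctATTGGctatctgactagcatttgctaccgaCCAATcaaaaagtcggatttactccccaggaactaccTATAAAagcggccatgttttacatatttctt
HIST1H2AG, plus strand, chr6:27132796-27133042, neighbour HIST1H2BJ: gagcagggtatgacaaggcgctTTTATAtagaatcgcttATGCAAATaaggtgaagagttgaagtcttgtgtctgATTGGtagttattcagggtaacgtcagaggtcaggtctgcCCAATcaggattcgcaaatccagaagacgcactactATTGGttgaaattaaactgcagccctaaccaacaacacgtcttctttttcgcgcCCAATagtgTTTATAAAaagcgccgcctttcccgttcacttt
HIST2H2BE, minus strand, chr1:149886683-149886917, neighbour HIST2H2AC: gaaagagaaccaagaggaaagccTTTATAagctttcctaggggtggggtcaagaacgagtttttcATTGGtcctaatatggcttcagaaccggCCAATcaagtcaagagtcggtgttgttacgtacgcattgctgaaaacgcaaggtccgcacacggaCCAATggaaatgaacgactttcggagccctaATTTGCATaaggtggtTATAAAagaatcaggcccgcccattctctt
HIST1H2BD, plus strand, chr6:26157871-26158120: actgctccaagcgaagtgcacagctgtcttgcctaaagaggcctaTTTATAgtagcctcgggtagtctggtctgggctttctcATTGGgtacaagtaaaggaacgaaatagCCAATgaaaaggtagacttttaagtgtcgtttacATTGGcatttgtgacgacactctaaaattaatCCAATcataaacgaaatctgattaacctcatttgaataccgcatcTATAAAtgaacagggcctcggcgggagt
A TATAAA stands 31 bases before the start of HIST1H2AC, 31 before HIST1H2AG, 30 before HIST2H2BE and 28 before HIST1H2BD. The octamer stands 46 bases before HIST2H2BE, 130 before HIST1H2AC and 208 before HIST1H2AG. It was not found in the window of HIST1H2BD. RefSeq gave a promoter for 44 of the 49 genes. In the 250 bases before the start, on either strand, 27 of the 44 (61.4%) hold TATAAA, against 10.7% of all 35116 promoters, 38 (86.4%) hold CCAAT, against 32%, and 19 (43.2%) hold ATGCAAAT, against 1.63%. By class, the octamer was in 12 of the 16 H2B promoters, 6 of 10 for H2A, 1 of 7 for H3, 0 of 4 for H1 and 0 of 7 for H4. These are letter matches and not measured binding sites.

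Values after 48 h of INC424 and after DMSO follow for the partners of the 4 H2A genes that passed as higher. HIST1H2BC, which starts 246 bases from HIST1H2AC, had 65.6, 71.8 and 75.1 reads after 48 h of INC424, against 52.9, 71.5 and 79.9 after DMSO, with overlapping groups and a log2 difference of 0.08 ± 0.31 (SE, adjusted p = 0.886), while HIST1H2AC differed by 2.14. HIST1H2BJ, which starts 248 bases from HIST1H2AG, had 99.4, 79.6 and 148 reads after INC424, against 86.3, 100.2 and 127 after DMSO, a log2 difference of 0.03 ± 0.30 (SE, adjusted p = 0.949), while HIST1H2AG differed by 2.25. HIST3H2BB, 230 bases from HIST3H2A, averaged 24.4 ± 7.43 after INC424 and 16 ± 10.9 after DMSO (SD, n = 3 each, adjusted p = 0.396). HIST1H2BN, 194 bases from HIST1H2AK, averaged 84.2 ± 10.1 after INC424 and 53 ± 6.9 after DMSO (adjusted p = 0.107). In 4 of the 8 pairs 1 partner passed, in each the H2A gene, and in the other 4 pairs neither did. Those other 4 include the pairs of HIST1H3D and HIST1H3F, which hold no H2A gene. Between the INC424 line and 48 h of INC424, described below, both partners of 2 of these pairs were lower. The log2 differences were -3.19 for HIST1H2AC and -0.90 for HIST1H2BC, and -1.57 for HIST1H2AG and -0.84 for HIST1H2BJ, and the calls of both H2B genes depended on single libraries. HIST2H2BE, an H2B gene that rose at 48 h (log2 difference 1.36), starts 236 bases from HIST2H2AC. HIST2H2AC stayed under the read threshold, so this pair is not among the 8. Against naive cells the partner that passed alone varied (log2 differences in brackets). It was HIST1H2BJ in the BMS911543 line (-1.32, HIST1H2AG 0.03) and HIST1H2BN in the SAR302503 line (1.34, HIST1H2AK 1.39). HIST1H2AC passed alone in the SAR302503 line (-1.35, HIST1H2BC 0.48). The difference between partners was not tested, and whether reads were assigned by strand is not given in the sources used here.

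**Figure D5:**
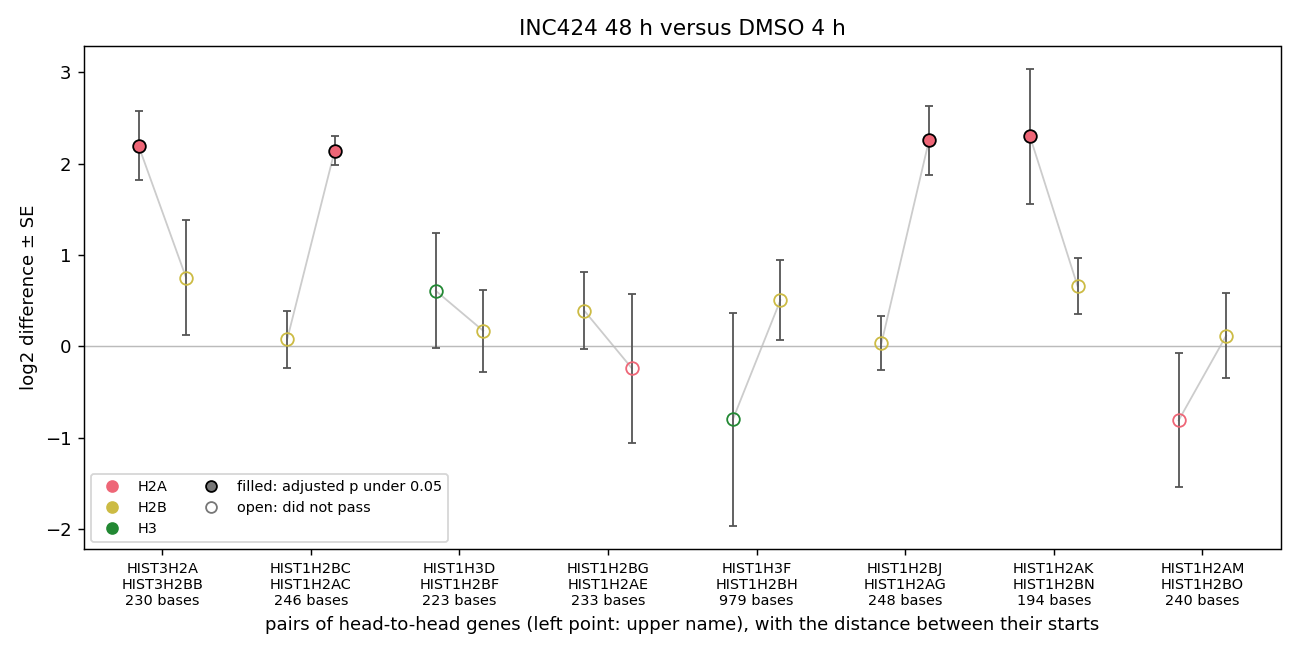
Pairs of points give the log2 difference with its SE between cells given INC424 for 48 h and cells given DMSO for 4 h (y axis) for the partners of 8 head-to-head histone pairs (x axis, with the distance between starts), coloured by class. HIST3H2A, HIST1H2AC, HIST1H2AG and HIST1H2AK are filled as past the threshold and their H2B partners are open.

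HIST1H2AC was lower in 3 of the 4 persistent lines than in naive cells, and so was HIST1H2BJ. The 4 comparisons share the naive libraries. HIST1H2AC had 231, 384 and 293 reads in the INC424 line, 362, 478 and 396 in the SAR302503 line, 539.9, 628 and 606 in the CYT387 line and 874, 859.7 and 832 in the BMS911543 line, against 1242, 1058 and 860.1 in naive cells. The first 3 lines lie wholly below the naive libraries, and the BMS911543 line overlaps the lowest of them. Line by line, 15.5% (CYT387) to 23.9% (BMS911543) of all genes tested lay wholly below the naive libraries. The log2 difference was -1.81 ± 0.16 (SE, adjusted p = 1.32e-08) in the INC424 line, -1.35 ± 0.16 (SE, adjusted p = 1.84e-06) in the SAR302503 line and -0.82 ± 0.16 (SE, adjusted p = 0.000851) in the CYT387 line. It did not pass in the BMS911543 line, at -0.28 ± 0.16 (SE, adjusted p = 0.216). In a moderated F test the 4 lines differed from one another in HIST1H2AC (adjusted p = 6.42e-07). In all, 8 members differed among the lines, against 47.1% of all genes tested, and 10 did without CYT387 replicate 2.

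HIST1H2BJ, an H2B gene known to be polyadenylated, had 92.1, 53.4 and 38.6 reads in the BMS911543 line, 77, 51.3 and 70.1 in the CYT387 line, 62.4, 51.9 and 61.8 in the INC424 line and 114, 73.7 and 87.2 in the SAR302503 line, against 134, 151 and 151 in naive cells. Every persistent library is below every naive library. The log2 difference passed in the BMS911543 line (-1.32 ± 0.30 SE, adjusted p = 0.00198), the CYT387 line (-1.14 ± 0.30 SE, adjusted p = 0.00867) and the INC424 line (-1.29 ± 0.30 SE, adjusted p = 0.0024), and not in the SAR302503 line (-0.68 ± 0.30 SE, adjusted p = 0.117). The calls in the first 3 lines held without any 1 library. The F test among the lines gave an adjusted p of 0.205 for HIST1H2BJ, so no difference between the lines was shown.

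In the INC424 line, 4 members were lower (8.16%, against 12.5% of all genes tested) and 1 was higher (2.04%, against 9.95%), and these 5 calls held without any 1 library. HIST1H2BK had 228, 341 and 163 reads in the INC424 line, against 672, 647 and 594 in naive cells, without overlap and with a log2 difference of -1.45 ± 0.35 (SE, adjusted p = 0.00392). HIST1H2BD had 130.4, 63.9 and 73.7 reads in the line, against 247, 215 and 182 in naive cells, also without overlap, with a log2 difference of -1.32 ± 0.30 (SE, adjusted p = 0.00207). Without CYT387-persistent replicate 2, HIST1H4H passed as lower too (log2 difference -0.84, adjusted p = 0.0343). The gene that was higher, HIST1H3C, rests on few reads: 31 in the INC424 line and 2 in naive cells over 3 libraries each, a ratio of 12.9 (95% counting interval 3.28 to 111, adjusted p = 0.00544). The median log2 difference of the members was -0.02, against 0.03 for all genes tested, and its sign changed with upper-quartile scaling (0.02) and with edgeR (0.09) and DESeq2 (0.08) on the recovered reads. Of the 34 S-phase and replication genes, 22 were higher and 0 lower in this line. SLBP averaged 2097 ± 180.7 reads in the line and 1436 ± 179.2 in naive cells (SD, n = 3 each, adjusted p = 0.000714). INC424-persistent replicate 2 had 4 members at 0 and a summed H1 signal of 179.7, against 472 in replicate 1 and 452 in replicate 3. Without that replicate HIST1H1E passed as higher in the line (log2 difference 1.12, adjusted p = 0.0293), while with all libraries it had 188, 60.5 and 154 reads in the line, against 76.2, 110.0 and 56.1 in naive cells (log2 difference 0.63 ± 0.37 SE, adjusted p = 0.258). Squamous epithelial markers were higher for 2 of 10 genes in this line, with a summed signal of 1578 to 8049 and none at 0, against 86.6 to 635 in naive cells, where KRT17 was at 0. Erythroid markers were higher for 8 of 10 genes, with a summed signal of 349317 to 406956, against 48613 to 59834 in naive cells, and none was at 0. Their part in the result was not tested.

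In the SAR302503 line, 5 members were higher (10.2%, against 8.7% of all genes tested) and 2 were lower (4.08%, against 10.6%), with a median log2 difference of 0.25, against -0.01 for all genes tested. Besides HIST1H2AC, the lower gene was HIST2H4A, an H4 gene, with 13.8, 19.1 and 24.7 reads in the line, against 50.4, 53.9 and 51 in naive cells. The groups do not overlap, and the log2 difference was -1.42 ± 0.34 (SE, adjusted p = 0.00498). HIST1H2BN had 66.8, 128 and 77.5 reads in the line, against 37.5, 44.2 and 23.4 in naive cells, again without overlap (log2 difference 1.34 ± 0.31 SE, adjusted p = 0.00353). HIST1H3C had 69 reads in the line and 2 in naive cells, a ratio of 34.1 (95% counting interval 9.10 to 287.5, adjusted p = 0.00023). These 2 rises and both falls held without any 1 library. In other limma settings HIST1H2BN missed the threshold in a fit of the compared groups alone (adjusted p = 0.0634). HIST2H4A missed it with sample weights (adjusted p = 0.0629). HIST1H1D, an H1 gene, had 69.1, 63.5 and 79.3 reads in the line, against 24.6, 20.5 and 30.6 in naive cells (log2 difference 1.46 ± 0.46 SE, adjusted p = 0.0296), and lost the call without any one of the 3 SAR302503 libraries or without naive replicate 1 or 2 (adjusted p = 0.0517 to 0.0996). HIST1H2AM lost it without any one of 5 libraries, SAR302503 replicates 2 and 3 and the 3 naive replicates (0.0677 to 0.146), and HIST3H2A without any one of 4, SAR302503 replicates 1 and 3 and naive replicates 1 and 2 (0.0802 to 0.0930). Only 4 members were called without naive replicate 1 or 2, and 13 without CYT387-persistent replicate 2. Those 13 include HIST1H2BK (log2 difference -0.90, adjusted p = 0.00312) and HIST2H2BE (-0.56, adjusted p = 0.0348), which did not pass with all libraries. Among S-phase and replication genes 19 of 34 were higher and 0 lower. Squamous epithelial markers were higher for 5 of 10 genes, with a summed signal of 2267 to 32036 and none at 0, against 86.6 to 635 in naive cells. Erythroid markers were higher for 7 of 10 and lower for 1, with a summed signal of 234603 to 367904, against 48613 to 59834 in naive cells. The part of either in the result was not tested.

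In the BMS911543 line, 5 members were lower (10.2%, against 14.2% of all genes tested) and 1 was higher (2.04%, against 10.4%), with a median log2 difference of -0.11, against 0.02 for all genes tested. Of these calls only that of HIST1H2BJ held without any 1 library. HIST1H2BD had 132, 104 and 126 reads in the line, against 247, 215 and 182 in naive cells (adjusted p = 0.0456, or 0.0509 to 0.154 without any one of 16 libraries). HIST1H4H, an H4 gene, had 41.9, 52.3 and 40.7 reads in the line, against 72.7, 83 and 96.8 in naive cells (adjusted p = 0.0432, or 0.0505 to 0.137 without any one of 15). Neither pair of groups overlaps. HIST1H2BE averaged 3.94 ± 2.71 reads in the line and 14.3 ± 3.88 in naive cells (SD, n = 3 each), with adjusted p = 0.0772 to 0.108 without BMS911543 replicate 1 or 3 or naive replicate 1. HIST1H3I averaged 1.99 ± 1.07 in the line and 9.24 ± 4.24 in naive cells, and lost the call without any one of 17 libraries (0.0502 to 0.171). HIST1H3C, with 15 reads in the line and 2 in naive cells (ratio 6.74, 95% counting interval 1.57 to 60.7), lost it without any one of 14 (0.05004 to 0.146). Between 1 and 8 members were called when 1 library was left out, with 1 without BMS911543 replicate 1 or 3, 2 without BMS911543 replicate 2, any naive replicate, INC424 48 h replicate 3 or INC424 4 h replicate 1 or 3, and 3 without any one of 8 more: the 3 DMSO libraries, INC424 48 h replicates 1 and 2, INC424 4 h replicate 2, INC424-persistent replicate 3 and SAR302503-persistent replicate 1. It was 8 without CYT387-persistent replicate 2. Those 8 include HIST1H2BK (log2 difference -0.70, adjusted p = 0.0163) and HIST1H4A (-1.72, adjusted p = 0.0370), which did not pass with all libraries. Erythroid markers were higher for 9 of 10 genes in the line, with a summed signal of 308319 to 354596, against 48613 to 59834 in naive cells, and their part in the result was not tested.

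In the CYT387 line, 4 members were lower (8.16%, against 11.1% of all genes tested) and 2 were higher (4.08%, against 11.2%), with a median log2 difference of -0.30, against 0.00 for all genes tested. Without CYT387 replicate 2, 7 members were called. HIST1H2AC then differed by -0.86 on the log2 scale (adjusted p = 0.000749), HIST2H2BE by -0.86 (0.00761) and HIST1H2BJ by -0.97 (0.0289). HIST2H2BE had 146, 211 and 147 reads in the line, against 254, 283 and 263 in naive cells, without overlap (adjusted p = 0.029 with all libraries, and 0.0554 to 0.0804 without any one of CYT387 replicates 1 and 3 and the 3 naive replicates). HIST1H2BK had 314, 1148 and 324 reads in the line, where replicate 2 alone is high, against 672, 647 and 594 in naive cells. With that replicate its log2 difference was -0.38 ± 0.35 (SE, adjusted p = 0.442), and without it -0.995 (adjusted p = 0.00581). The calls of HIST1H3H, higher at 24.9, 97.4 and 24.4 reads in the line, against 7.03, 15.1 and 5.1 in naive cells, and of HIST2H4A, lower at 26, 17.1 and 32.9, against 50.4, 53.9 and 51, were lost without replicate 2 (adjusted p = 0.0867 and 0.118). HIST1H3H also lost its call without naive replicate 1 or 3, and HIST2H4A without any naive replicate. HIST3H2A had 21.3, 22.4 and 22.3 reads in the line, against 7.03, 7.55 and 11.2 in naive cells (log2 difference 1.29 ± 0.38 SE, adjusted p = 0.0187, or 1.27 without replicate 2), with adjusted p = 0.0548 to 0.0639 without naive replicate 1 or 2. Without CYT387 replicate 1 or 3, which leaves the library that stands apart, 10 and 12 members were called, and without naive replicate 1 or 3 there were 2 and 3. In a fit of the CYT387 and naive libraries alone 0 members were called. Squamous epithelial markers were higher for 1 of 10 genes and stromal markers for 3 of 7 tested. Erythroid markers were higher for 6 of 10, with a summed signal of 56017 to 209240 in the line, against 48613 to 59834 in naive cells. The part of these markers in the result was not tested.

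Many histone genes were lower in the line kept in INC424 than after short exposure to the same drug. Against naive cells given INC424 for 48 h, 14 members were lower in the INC424 line (28.6%, against 15.4% of all genes tested) and 0 were higher (against 14.5%). The median log2 difference of the members was -0.81, against -0.02 for all genes tested. HIST1H2AC had 231, 384 and 293 reads in the INC424 line, against 2532, 2991 and 2658 after 48 h of INC424, a log2 difference of -3.19 ± 0.16 (SE, adjusted p = 1.30e-12). HIST1H2BD differed by -2.63 ± 0.30 (SE, adjusted p = 4.73e-07), HIST3H2A by -2.18 ± 0.38 (SE, adjusted p = 0.000121) and HIST2H2BE by -1.65 ± 0.22 (SE, adjusted p = 4.74e-06). HIST1H2BK, which had not differed between 48 h of INC424 and DMSO beyond the threshold, had 228, 341 and 163 reads in the line, against 726, 761 and 912 after 48 h of INC424, a log2 difference of -1.77 ± 0.35 (SE, adjusted p = 0.000495). HIST1H2AG (-1.57, adjusted p = 0.00259) and HIST1H3E (-2.64, adjusted p = 0.0121) complete the 7 calls that held without any 1 library.

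The other 7 calls in that comparison did not hold in this way. HIST1H1C had 198, 94.5 and 225 reads in the INC424 line, against 439, 373 and 604 after 48 h of INC424 (log2 difference -1.51 ± 0.48 SE, adjusted p = 0.0201, adjusted p = 0.0828 without INC424 48 h replicate 3 and 0.122 without INC424-persistent replicate 2). HIST1H4H lost its call without the same 2 libraries (adjusted p = 0.0561 and 0.110). HIST2H4A lost it without INC424 48 h replicate 2 or INC424-persistent replicate 1, and HIST1H3D without INC424 48 h replicate 1 or INC424-persistent replicate 2 or 3. HIST1H2BC, HIST1H2BJ and HIST1H4C each lost it without any one of 5 of the 6 libraries compared, all but INC424-persistent replicate 1 for HIST1H2BC and HIST1H4C and all but INC424 48 h replicate 2 for HIST1H2BJ (highest adjusted p = 0.187, 0.189 and 0.130). Without INC424 48 h replicate 3, 9 members were called. All 8 genes listed as having a polyadenylated form were lower, with a median of -1.58. That list was drawn up with earlier results of these data known. By contrast, 32 of the 34 S-phase and replication genes were higher and 0 lower. Of the 21 genes that form the histone 3′ end, 11 were higher and 0 lower. Of the 25 members with a longer annotated end 12 were lower, and of the other 24 members 2 were. Many of those 24 have no annotated 3′ UTR, and neither do HIST1H2BK and HIST1H3D among the 12. The 48 h libraries used here are those set against DMSO above, so the opposite directions in the 2 comparisons are not separate observations. Erythroid markers were higher for 7 of 10 genes and lower for 3 in the line, with a summed signal of 349317 to 406956, against 194941 to 216780 after 48 h of INC424, and their part in the result was not tested.

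The comparison of DMSO for 4 h with no addition shows how far histone RNA differed without any inhibitor. In DMSO-treated cells 2 members were higher (4.08%, against 11.4% of all genes tested) and 1 lower (2.04%, against 14.6%), with a median log2 difference of 0.59, against 0.02 for all genes tested. HIST1H2AC had 601, 625 and 621 reads after DMSO, against 1242, 1058 and 860.1 in naive cells, without overlap (log2 difference -0.76 ± 0.16 SE, adjusted p = 0.00121). DMSO-treated cells thus had less of this RNA than naive cells, and the 48 h libraries were above both. HIST1H3C had 50 reads after DMSO and 2 in naive cells, a ratio of 18.6 (95% counting interval 4.89 to 158, adjusted p = 0.00178). HIST2H2AA4 had 45.6, 55 and 53 reads after DMSO, against 27, 19.4 and 15.3 in naive cells (adjusted p = 0.0262), and lost the call without any one of the 3 DMSO libraries or naive replicate 2 or 3 (0.0512 to 0.105). HIST1H1C had 429, 489.5 and 523 reads after DMSO, against 269.6, 205 and 214 in naive cells, without overlap, and missed the threshold (log2 difference 1.07 ± 0.48 SE, adjusted p = 0.108). In this comparison 23.8% of all genes tested lay wholly above the naive libraries and 24.5% wholly below. Without CYT387-persistent replicate 2, 7 members were called, HIST1H1C among them (adjusted p = 0.00637). HIST1H2BK (log2 difference 0.70, adjusted p = 0.0149) and HIST1H4H (0.80, adjusted p = 0.0394) then passed as well. Of the S-phase and replication genes 17 of 34 were higher after DMSO and 0 lower. Megakaryocyte markers were higher for 1 of 9 genes and lower for 3, with a summed signal of 68404 to 86832 after DMSO, against 117269 to 139868 in naive cells, without overlap and with PF4 at 0 in both. Of 10 erythroid markers, 3 were higher and 1 lower, with a summed signal of 47484 to 57810 after DMSO, against 48613 to 59834 in naive cells. Lymphoid markers were lower for 3 of 8 tested and higher for 0, with a summed signal over 9 genes of 1415 to 1911 after DMSO, against 2963 to 3166 in naive cells. The part of these markers in the result was not tested.

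Summed by class, the 11 H2A genes had 3090 ± 224.6 normalised reads after 48 h of INC424, against 811 ± 33.1 after DMSO and 1199.8 ± 214 in naive cells (SD, n = 3 each). The 17 H2B genes had 2566 ± 205 after 48 h of INC424, 1989 ± 138 after DMSO and 1592 ± 108 in naive cells. The 4 H1 genes had 614 ± 117 after 48 h of INC424, 668 ± 90.2 after DMSO and 346 ± 32.9 in naive cells. H4 genes summed to 439 ± 36.2 after 48 h of INC424, 457 ± 38.4 after DMSO and 347 ± 47.2 in naive cells, and H3 genes to 139.9 ± 24.5 after 48 h of INC424, 106 ± 20.3 after DMSO and 58 ± 4.8 in naive cells. The lowest H2A sum at 48 h was 2958, against a highest of 1391 in naive cells and 849 after DMSO, while the H1 and H4 sums at 48 h overlap those after DMSO. In the persistent lines the H2A sum was 991 ± 27.5 (BMS911543), 734 ± 42.0 (CYT387), 473 ± 52.7 (INC424) and 611 ± 65.3 (SAR302503), and the H2B sum was 1097 ± 33.1 (BMS911543), 1362 ± 603 (CYT387), 938 ± 174 (INC424) and 1204 ± 247 (SAR302503). CYT387 replicate 2 had an H2B sum of 2058, against 998 in replicate 1 and 1031 in replicate 3, which are both below the BMS911543 average. The H2A sums of the CYT387 libraries were 686, 756 and 761.

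By class, the H1 genes gave 2 calls in the 9 comparisons, HIST1H1D in the SAR302503 line and HIST1H1C between the INC424 line and 48 h of INC424. HIST1H1E ranged between 54.5 and 188 reads over the 24 libraries and HIST1H1B between 5.82 and 38.2, and neither passed in any of the 9 comparisons. Among H3 genes, HIST1H3H ranged between 4.01 and 97.4, with its highest value in CYT387-persistent replicate 2, and HIST1H3D between 1.316 and 52.5. Among H4 genes, HIST1H4H, which passed in 2 comparisons, had 98.4, 84.4 and 114 reads after 48 h of INC424, against 139, 171 and 131 after DMSO (log2 difference -0.57 ± 0.32 SE, adjusted p = 0.179). HIST1H4A ranged between 0 and 132. It had 7.5, 27.2 and 46.1 reads after 48 h of INC424, against 71.6, 56.7 and 123 after DMSO, and missed the threshold with all libraries (log2 difference -1.84 ± 1.12 SE, adjusted p = 0.225), while it passed without CYT387-persistent replicate 2 (adjusted p = 0.0208).

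The 25 members that passed in none of the 9 comparisons are 2 H1, 5 H2A, 10 H2B, 3 H3 and 5 H4 genes. HIST1H2BH and HIST1H2BG, H2B genes of the chromosome 6 cluster, averaged 65.4 and 42.1 reads over the 24 libraries and are among them, as is the H4 gene HIST1H4E at 46.5. HIST1H2BH had 90.9, 67.9 and 114 reads after 48 h of INC424, against 92, 40.2 and 65.6 after DMSO (log2 difference 0.50 ± 0.44 SE, adjusted p = 0.411). The rarest members could not have shown modest changes: the SE of the log2 difference was 0.98 for HIST1H4B, which averaged 4.43 reads, and 0.16 for HIST1H2AC.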

How the data were processed

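Poly(A) RNA was captured on oligo(dT) beads, fragmented with RNase III, made into libraries with 16 PCR cycles and sequenced on an Ion Proton, per the labels' protocols. The submitters' processing notes name hg19 and GRCh37 as builds and DESeq 1.10.1, HTSeq 0.5.3p3 and BWA 0.7.5.1 as tools, with no role or order, and the counting's strand setting is not given in the sources used here. The deposited table holds a signal, read counts divided by 1 factor per library by the authors: every value was a whole multiple of its library's smallest step (0.791 to 1.316 normalised reads) within 0.01, which gave whole reads for 100% of values and 21770721 to 36160750 reads per library. No 2 libraries held identical values, and 9 libraries had been run again or on more than 1 lane, per the labels. Values are not divided by gene length.

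Genes with a value of at least 10 in at least 3 samples (20154 of 25082) were fitted with limma 3.58.1 in R 4.3.3 on log2(value + 1), 1 fit of 24 samples with 16 residual degrees of freedom and a mean-variance trend, with Benjamini-Hochberg adjustment over all genes tested and a threshold of 0.05. Fold changes on this scale understate changes of low genes. Tests were 9 comparisons of 2 groups, an F test across the 8 groups and one among the 4 persistent lines, all two-sided. The script was tested on simulated data. Alternatives were other pseudocounts (0.5 and 10), filters (none and 50), TMM and upper-quartile scaling, other variance settings, sample weights, a replicate block, a term for libraries run again, fits of the compared groups alone, fits without each single library, and count tests of the recovered reads with DESeq2 1.42.0 and edgeR 4.0.16. Intervals on reads (95%, exact) cover counting error only. Sums and figures were made with Python 3.11.15, pandas 2.3.3, scipy 1.17.1 and matplotlib 3.10.9.

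The members and gene lists were chosen with earlier results of these data known. Any member could be named, with values per sample for the 2 most read of each class and for the largest changes past the threshold in a comparison, and from each list the largest changes. GENCODE 29 and RefSeq GRCh38.p14 gave names, annotation and sequences only, and all 49 members matched both. Replicate numbers did not pair the samples: over 84 pairs of same-numbered libraries the median correlation of deviations from group means was -0.0065 (-0.430 to 0.311), and for 3 of 24 libraries the closest other library shared its number.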

Additional observations from a re-analysis of the deposited data

Results flagged for a closer look

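The 4 persistent lines, each compared with the same naive libraries, differed from one another in 8 of the 49 histone genes by the moderated F test of limma. Of all genes tested, 47.1% differed by this test, so the count is not a result about the family. HIST1H2AC (adjusted p = 6.42e-07) was lowest in the INC424 line at 303 ± 76.8 normalised reads, then 412 ± 59.7 in the SAR302503 line, 591 ± 45.8 in the CYT387 line and 855 ± 20.9 in the BMS911543 line, against 1053 ± 191 in naive cells (SD, n = 3 each). HIST1H3C (adjusted p = 0.00692) averaged 24.3 ± 5.79 in the SAR302503 line, 9.83 ± 4.29 in the INC424 line, 3.91 ± 5.87 in the CYT387 line and 4.89 ± 0.289 in the BMS911543 line, against 0.781 ± 1.35 in naive cells. HIST2H4A (adjusted p = 0.00913) averaged 53.5 ± 13.2 in the BMS911543 line, 35.3 ± 13 in the INC424 line, 25.4 ± 7.93 in the CYT387 line and 19.2 ± 5.42 in the SAR302503 line, against 51.8 ± 1.89 in naive cells. HIST1H2AM (adjusted p = 0.0273) averaged 28.6 ± 14.9 in the SAR302503 line and between 4.93 and 9.25 in the other lines, against 5.08 ± 1.24 in naive cells. HIST1H2BD (adjusted p = 0.0324) averaged 197 ± 116 in the CYT387 line, 141 ± 14.4 in the SAR302503 line, 121 ± 15 in the BMS911543 line and 89.3 ± 35.9 in the INC424 line, against 215 ± 32.4 in naive cells. HIST1H3I (adjusted p = 0.0308) and HIST1H4E (adjusted p = 0.0271) also differed. HIST4H4 (adjusted p = 0.0471) had 22.5, 109 and 23.4 reads in the CYT387 libraries, where replicate 2 alone is high. Without that replicate HIST4H4 (adjusted p = 0.113) and HIST1H4E (0.0501) no longer passed and the other 6 genes did, HIST1H2AC at 1.29e-07. HIST2H2BC (0.0208), HIST1H2BK (0.037), HIST1H2BE (0.0419) and HIST1H4B (0.0442) then passed as well, 10 genes in all.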

How the results depend on the processing

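Of the 126 log2 differences followed through 4881 alternatives, 4582 kept their direction and their side of the threshold, 213 lost a call, 86 gained one and 0 reversed. Counts of members called moved as follows, with causes not tested. INC424 4 h versus DMSO (0 called) gave 1 without the variance trend, 1 with DESeq2, 9 with sample weights and 5 in a fit of its own groups. INC424 48 h versus DMSO (9) gave 21 with weights and 18 alone, and 48 h versus 4 h (7) gave 14 with weights and 11 alone. BMS911543 versus naive (6) gave 3 with no filter, 3 with the filter at 50, 12 with weights and 2 with the term for rerun libraries. CYT387 versus naive (6) gave 11 with weights and 0 alone, where its 6 calls had adjusted p-values of 0.0818 to 0.299. INC424 line versus naive (5) gave 10 with weights, and SAR302503 versus naive (7) gave 4 with weights. DMSO versus naive (3) gave 1 with the filter at 50, 6 without the trend, 17 with weights, 8 alone and 5 with DESeq2. The F test across groups (18) gave 32 with weights, and that among the lines (8) gave 4 with the filter at 50 and 1 alone. Leaving out 1 library gave ranges of 0 to 1 (4 h versus DMSO), 6 to 11 (48 h versus DMSO), 3 to 12 (48 h versus 4 h), 1 to 8 (BMS911543), 2 to 12 (CYT387), 5 to 7 (INC424 line), 4 to 13 (SAR302503), 9 to 17 (INC424 line versus 48 h), 2 to 7 (DMSO versus naive), 14 to 25 (F across groups) and 6 to 11 (F among lines). An alternative chosen after seeing the data, leaving out replicate 2 of the CYT387 and INC424 lines together, gave 1 (4 h versus DMSO), 11 (48 h versus 4 h), 8 (INC424 line), 13 (SAR302503) and 10 (DMSO versus naive). The replicate block moved BMS911543 versus naive to 3 members called, and no other count by over 1.5 times. No scaling moved the median of all genes by over 0.1 on the log2 scale. Depth limits the rarer genes: 23 members averaged under 20 reads.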

Other observations

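Replacement histones, which are made from ordinary polyadenylated mRNA, moved in both directions after 48 h of INC424. Of 12 such genes, 2 were higher and 6 lower than after DMSO, with a median log2 difference of -0.39, against 0.00 for all genes tested by limma. H2AFJ, an H2A variant, averaged 439.7 ± 21.8 normalised reads after INC424 and 188 ± 8.99 after DMSO (SD, n = 3 each, log2 difference 1.22, adjusted p = 0.00579). H1FX, a linker histone variant, had a log2 difference of 0.91 (adjusted p = 0.00141). H2AFZ, the H2A.Z gene, averaged 3743 ± 346 after INC424 and 8008 ± 223 after DMSO (log2 difference -1.10, adjusted p = 3.47e-05), and CENPA, the centromeric H3 variant, had a log2 difference of -0.79 (adjusted p = 9.08e-05). Of 18 histone chaperones, 1 was higher and 12 were lower, with a median of -0.62. CHAF1A, the large subunit of the chaperone that places H3 and H4 on new DNA, averaged 1583 ± 28.7 after INC424 and 3002 ± 278 after DMSO (log2 difference -0.92, adjusted p = 3.89e-06). HAT1, which acetylates new H4, averaged 950.5 ± 36.9 after INC424 and 1934 ± 153 after DMSO (log2 difference -1.02, adjusted p = 2.29e-05).

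In the INC424 line these genes had other values. Against naive cells 2 of the 12 replacement histones were higher and 2 lower, with a median of 0.25, and 3 of the 18 chaperones were higher and 0 lower, with a median of 0.23, against 0.03 for all genes tested. H2AFY, the macroH2A1 gene, averaged 10986 ± 490.1 reads in the line and 21815 ± 986 in naive cells (SD, n = 3 each, log2 difference -0.99, adjusted p = 2.11e-07), and H2AFY2, the macroH2A2 gene, averaged 209 ± 31.2 in the line and 458 ± 90.1 in naive cells (log2 difference -1.12, adjusted p = 0.00126). ASF1B, which carries new H3 and H4, averaged 2454 ± 234 in the line and 801 ± 83.6 in naive cells (log2 difference 1.62, adjusted p = 2.86e-07).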
